A study of Mus musculus with 16 samples.

Results

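Foxp3, the 4 Ikaros family genes Ikzf1, Ikzf2, Ikzf3 and Ikzf4, and 5 transcription factors or cofactors that work beside Foxp3 in T cells (Foxo1, Runx1, Cbfb, Bach2 and Satb1) were followed through 16 RNA-seq libraries of mouse T cells. They were chosen by symbol, and each symbol matched exactly 1 gene identifier, giving 10 of the 49585 genes counted. All 10 passed the filter on low counts.

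Foxp3 is a forkhead transcription factor that defines regulatory T cells (Treg), the CD4+ cells that restrain immune responses, including those of the mother against the fetus. It works in protein complexes with other factors and both activates and represses genes. Ikaros proteins are zinc finger factors that bind DNA as dimers of the same or different family members, so the mix of family members in a cell is of interest in its own right.

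The cells came from BALB/c background Foxp3IRES-GFP mice, in which green fluorescent protein is made from the Foxp3 transcript, so the sort for Foxp3 used this reporter in all 4 groups. Pregnant uterine Treg were Foxp3+ cells, labelled CD25-, from the uterus at day 6, 7 and 8 of pregnancy by their source label, although some titles give a later last day. Uterine Treg were Foxp3+ CD25- cells of the non-pregnant uterus, lymph node Treg were Foxp3+ CD25+ cells of the paraaortic lymph nodes of non-pregnant mice, and uterine CD4conv were Foxp3- CD4+ conventional T cells of the non-pregnant uterus. Each group had 4 libraries. A library was a pool of 20 mice, or of 3 to 8 pregnant mice. Replicates were numbered 1, 2, 3 and 5 in the non-pregnant groups and 1 to 4 in the pregnant group. The labels give 2 sequencing batches, with pregnant uterine Treg and uterine CD4conv in batch 1 and uterine Treg and lymph node Treg in batch 2. Batch and group therefore cannot be told apart where uterine or lymph node Treg are set against CD4conv, or pregnant against non-pregnant uterine Treg. Uterine and lymph node Treg share a batch but carry opposite CD25 labels. Tissue and CD25 sort therefore cannot be told apart for any gene in that comparison, called the tissue comparison below. The age of the mice is not given in the sources used here.

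Total counts were between 1718558 and 15190212 per library. Some reads lay in genes foreign to T cells. If reads fell on every exonic base as often as on 1427 olfactory and vomeronasal receptor genes, they would make up 8.69% to 53.6% of a library, and over 30% in 5 libraries (pregnant uterine Treg 2 and 4, uterine Treg 3 and 5, lymph node Treg 3). T cell markers (10 genes) summed to 1704 to 7137, 2605 to 7713 and 4868 to 6611 CPM (counts scaled to the same total in every library) in pregnant uterine, uterine and lymph node Treg, and to 1968 to 4635 CPM in CD4conv. The CD4conv libraries stood apart in markers of other cells. Plasmacytoid dendritic cell markers (12 genes) summed to 111 to 590 CPM over the 12 Treg libraries and to 2969 to 7159 CPM in CD4conv, and markers of macrophages and dendritic cells (15 genes) to 122 to 1341 and 1748 to 23785 CPM. NK cell markers (12 genes) summed to 106 to 253 CPM in Treg and 677 to 2125 CPM in CD4conv, and CD8 T cell markers (2 genes) to 6.02 to 38.6 and 139 to 350 CPM. Single genes of these lists differed in Treg. Cox6a2 of plasmacytoid dendritic cells had 0 counts in all 4 uterine Treg libraries, while Siglech and Tcf4 averaged 23.9 and 93.4 CPM there. Klrb1c of NK cells had 0 counts in 2 libraries of each Treg group, while Klrk1 and Gzmb averaged 31.6 and 42.5 CPM in uterine Treg. Of these markers, 5, 7 and 11 of 15 for macrophages and dendritic cells and 11, 8 and 10 of 12 for plasmacytoid dendritic cells were called lower in uterine, pregnant uterine and lymph node Treg against CD4conv over all genes. The part of these other cells in the differences between Treg and CD4conv was not tested, and in such bulk libraries fewer cells of a type and less RNA per cell cannot be told apart.

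Across the 10 genes, Foxp3 and Ikzf2 were higher in each of the 3 Treg groups than in CD4conv, and Ikzf4 in lymph node Treg as well. The sort on the Foxp3 reporter sets the Foxp3 difference. None of the 10 passed the test between uterine and lymph node Treg or with pregnancy in uterine Treg. In simulated counts, a 4-fold change was recovered in 1.5% and 4.6% of genes in these comparisons, and a 16-fold change in 49.2% and 45.3%. Differences of 4-fold would therefore mostly be missed there. Differences were tested with edgeR's quasi-likelihood test on 30096 genes, adjusted by Benjamini-Hochberg and called under 0.05, and again on 4719 protein-coding genes whose mean level was over 5 times the receptor background, which leaves out Runx1 and Bach2. That filter used the mean over all 16 libraries. Ikzf2, Ikzf3, Ikzf4 and Foxp3 lay under 5 times background on average in CD4conv and entered through the Treg groups, so their part in the counts above background is a description and supports no call. The same holds for list genes that were low in 1 of the groups compared. The 3 comparisons with CD4conv share the same 4 CD4conv libraries, so their values are given side by side and are not independent of each other.

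Foxp3 is in every count against CD4conv below, and its difference was fixed by the sort, so its part in them is not a result. Apart from Foxp3, the calls over all genes were Ikzf2, with Ikzf4 in lymph node Treg. In uterine Treg against CD4conv, 2 of the 10 genes were called, both higher, where 0.518% of all genes tested were called. Among genes above background it was 4 of 8, all higher, where 6.1% were called. The libraries of these groups did not overlap in CPM for 3 of the 10 (4.33% of all genes). In pregnant uterine Treg against CD4conv, 2 of 10 were called, both higher (0.432% of all genes), and 6 of 8 above background, 5 higher and Ikzf1 lower (8.39%). The groups did not overlap for 6 of the 10, 5 higher and Ikzf1 lower (4.36%). In lymph node Treg against CD4conv, 3 of 10 were called, all higher (0.665%), 4 of 8 above background, all higher (7.65%), and 6 of 10 did not overlap, all higher (6.44%). Uterine against lymph node Treg gave 0 of 10 by edgeR (0% of all genes) and 0 of 8 above background (1.29%). Satb1, lower in uterine Treg, was the 1 gene of 10 without overlap there (3.4%). Pregnant against non-pregnant uterine Treg gave 0 of 10 (0%), 0 of 8 (0%) and 0 without overlap (1.03%). DESeq2 also called 0 of the 10 genes in these last comparisons. Unadjusted edgeR p-values under 0.05 numbered 905 and 822 of all 30096 genes. Of the 10 genes, Satb1 and Bach2 were among them for uterine against lymph node Treg, which also differ in CD25 label.

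**Figure D1:**
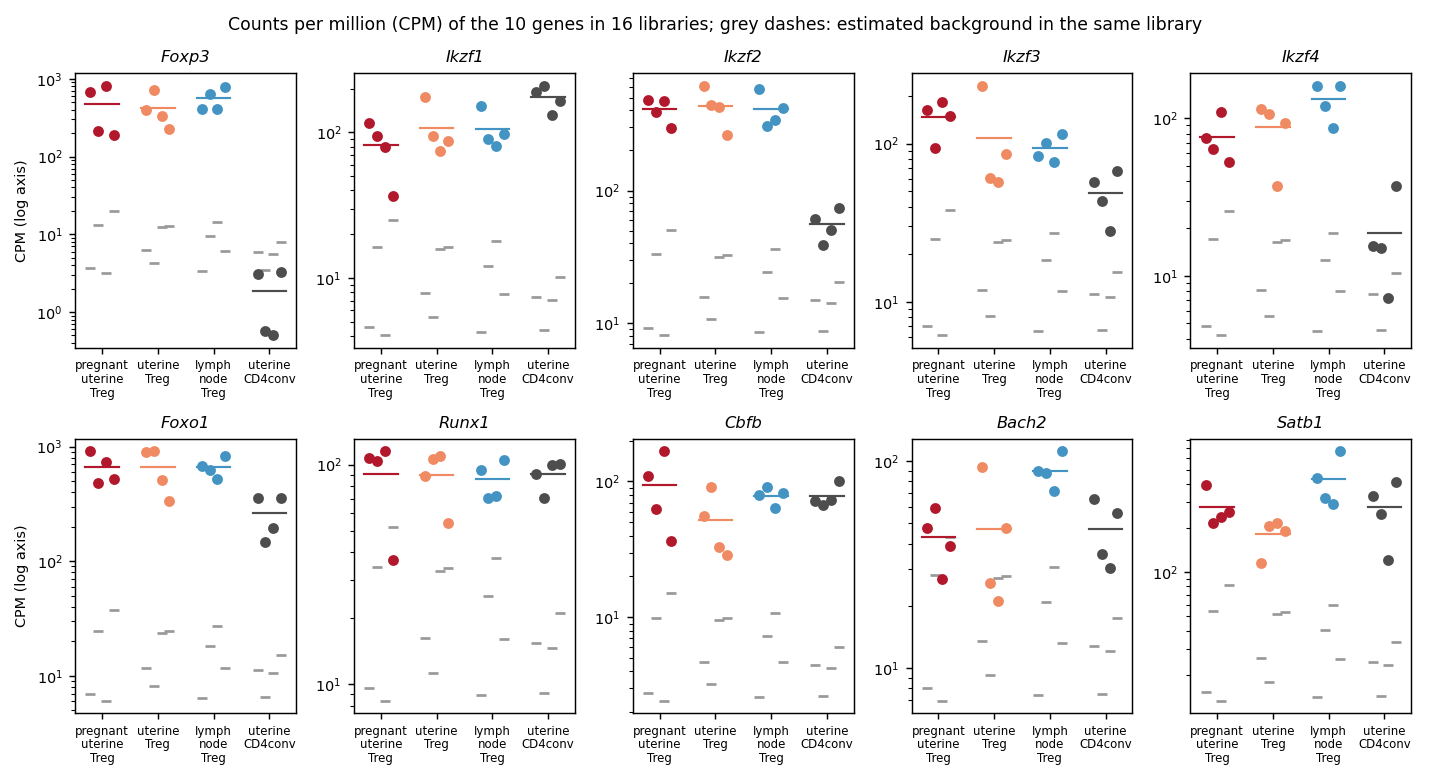
CPM of each of the 10 genes in the 16 libraries, on log axes that differ between panels, by group from pregnant uterine Treg at the left to uterine CD4conv at the right. Points are libraries, bars are group means and grey dashes are the background estimated for that gene in the same library. Foxp3 and Ikzf2 separate the 12 Treg libraries from the 4 CD4conv libraries, while Runx1 and Cbfb lie at overlapping levels in all 4 groups.

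Foxp3 (ENSMUSG00000039521, GRCm38 chromosome X, 7573644 to 7595245, plus strand) was at 677, 216, 814 and 192 CPM in pregnant uterine Treg, 394, 714, 331 and 227 CPM in uterine Treg, 414, 629, 407 and 784 CPM in lymph node Treg, and 3.06, 0.569, 0.503 and 3.26 CPM in CD4conv. Every Treg library lay above every CD4conv library. The CD4conv values came from 28, 7, 5 and 25 counts and were below the estimated background of the same libraries, so no Foxp3 signal above background was detectable in them. The log2 fold change over CD4conv was 8.24 ± 0.98 in pregnant uterine Treg (SE; adjusted p = 7.78e-05, edgeR), 7.86 ± 0.97 in uterine Treg (adjusted p = 0.000111) and 8.25 ± 0.99 in lymph node Treg (adjusted p = 5.07e-05). The sort on the Foxp3 reporter sets this difference, which serves as a check of the labels. Each of the 8 fits of each comparison that left out 1 library kept the call.

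Within the Treg groups Foxp3 was spread widely. The means were 475 ± 318 CPM in pregnant uterine, 417 ± 210 CPM in uterine and 559 ± 182 CPM in lymph node Treg (SD, n = 4 each), and the 3 groups overlapped. In pregnant uterine Treg the low values were those of replicates 2 and 4, which also had the group's highest estimated background (35.3% and 53.6%). In uterine Treg replicates 3 and 5 had the lowest Foxp3 and the highest background (33.9% and 34.9%). Lymph node Treg did not follow this order: replicate 1, with the lowest background (9.22%), was at 414 CPM, replicate 3, with the highest (38.6%), at 407 CPM, and replicate 2 (26.1%) at 629 CPM. The part of background in this spread was not tested. Per 100 counts of the T cell receptor subunits Cd3d, Cd3e and Cd3g, Foxp3 had 32.2 ± 10.9 counts in pregnant uterine Treg, 26.1 ± 6.70 in uterine Treg and 38.1 ± 16.5 in lymph node Treg, against 0.184 ± 0.108 in CD4conv (SD, n = 4 each). Flicr, a noncoding RNA gene of the Foxp3 locus on the same strand, shares 853 bases, or 18.6%, of the Foxp3 exonic sequence, and averaged 23.4 CPM. Reads in the shared stretch could belong to either gene.

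The start-site windows of Foxp3 and Cbfb are shown side by side. Foxp3 had the largest difference among the 10, and the groups of Cbfb overlapped in CPM in each of the 5 comparisons. Runx1, the other gene with such overlap, had means that lay closer together than those of Cbfb. Both windows hold the 250 bases before a RefSeq start (GRCm38.p6), on the plus strand at chrX:7580233-7580482 for the more downstream of the 2 Foxp3 windows listed and at chr8:105170424-105170673 for Cbfb. They are printed 5′ to 3′ with CG dinucleotides in capitals.
Foxp3: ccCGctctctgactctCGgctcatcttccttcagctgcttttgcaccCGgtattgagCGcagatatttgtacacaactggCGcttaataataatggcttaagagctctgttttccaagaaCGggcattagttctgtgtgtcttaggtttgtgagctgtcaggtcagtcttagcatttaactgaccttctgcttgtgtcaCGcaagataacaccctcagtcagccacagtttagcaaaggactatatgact
Cbfb: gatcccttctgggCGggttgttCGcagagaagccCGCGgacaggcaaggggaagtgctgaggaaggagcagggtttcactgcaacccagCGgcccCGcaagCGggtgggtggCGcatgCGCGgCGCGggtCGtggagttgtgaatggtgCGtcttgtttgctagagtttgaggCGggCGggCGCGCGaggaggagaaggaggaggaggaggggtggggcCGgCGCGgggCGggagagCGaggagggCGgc

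The Foxp3 window held 7 CG dinucleotides at 46.0% G+C, and the Cbfb window 25 at 69.2%. The windows listed for Runx1, whose groups also overlapped, held 2 at 45.6% and 27 at 67.6%. A link between these counts and expression was not tested. The median over 32851 such windows of mouse genes was 6 at 52.4%. Of all windows, 57.0% had no more CG dinucleotides than Foxp3 and 90.4% no more than Cbfb. Windows were listed for 7 of the 10 genes (14 windows), not for Ikzf2, Ikzf3 or Ikzf4. They were searched on both strands for TGTGGT (RUNX), TGTTTAC (forkhead), TGGGAA (Ikaros) and TGAGTCA (AP-1 and Bach), letters found in 14.05%, 3.17%, 21.6% and 4.46% of all windows. The only match among the 14 was TTCCCA, the Ikaros letters on the opposite strand, 65 to 70 bases before a Satb1 start. No match says only that these letters are not in the window.

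The Ikaros family differed most between Treg and CD4conv. Ikzf2 encodes Helios, a factor typical of Treg. It was at 476, 390, 474 and 294 CPM in pregnant uterine Treg, 614, 439, 423 and 260.3 CPM in uterine Treg, 576, 307, 336 and 417 CPM in lymph node Treg, and 60.7, 38.9, 50.2 and 74.1 CPM in CD4conv. The lowest Treg library was more than 3 times the highest CD4conv library. The log2 fold change over CD4conv was 2.82 ± 0.61 in pregnant uterine Treg (adjusted p = 0.0279, edgeR), 2.80 ± 0.61 in uterine Treg (adjusted p = 0.0305) and 2.92 ± 0.62 in lymph node Treg (adjusted p = 0.0149). The means in the Treg groups were 408 ± 86.5, 434 ± 145 and 409 ± 121 CPM (SD, n = 4), closer to each other than the spread within any of them.

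Over all genes tested, most fits that left out 1 library ended the Ikzf2 call. Of 9 other settings, 8, 7 and 8 kept it in uterine, pregnant uterine and lymph node Treg, among them DESeq2 and scaling to Cd3 counts. The fit above background is also among these and is a description only for Ikzf2. With only the compared groups fitted, the call ended in pregnant uterine Treg. For uterine Treg the call ended without uterine Treg replicate 1, 2 or 3 or without any 1 of the 4 CD4conv libraries (adjusted p up to 0.172). For pregnant uterine Treg it ended without replicate 1 or 3 or any 1 CD4conv library (up to 0.185), and for lymph node Treg without replicate 1 or 5 or any 1 CD4conv library (up to 0.113). The log2 fold change stayed between 2.35 and 3.12 in the 24 fits that left out 1 library. Without the 2 CD4conv libraries highest in macrophage markers, a setting chosen after seeing the data, it was 2.76, 2.74 and 2.86 in pregnant uterine, uterine and lymph node Treg (adjusted p = 1, 0.969 and 0.859, edgeR).

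Ikzf4 encodes Eos, which acts as a Foxp3 partner in gene silencing. Its levels were 75.3, 63.9, 110.0 and 52.9 CPM in pregnant uterine Treg, 114, 106, 37.4 and 93.5 CPM in uterine Treg, 160.0, 120.1, 86.7 and 161 CPM in lymph node Treg, and 15.4, 15.04, 7.24 and 37.0 CPM in CD4conv. All Treg libraries were above all CD4conv libraries, though uterine Treg replicate 3, at 37.4 CPM, lay next to CD4conv replicate 5. Over all genes it rose in lymph node Treg against CD4conv (log2 2.86 ± 0.64, adjusted p = 0.0255, edgeR), a call that ended without lymph node Treg replicate 1, 2 or 5 or CD4conv replicate 1, 2 or 3 (adjusted p up to 0.177), and when scaled to Cd3 counts (log2 2.10, adjusted p = 0.0672). In pregnant uterine Treg the log2 fold change was 2.03 ± 0.62 (adjusted p = 0.298) and in uterine Treg 2.12 ± 0.62 (adjusted p = 0.212). Background amounted to 28.4% to 100.8% of the Ikzf4 counts in CD4conv, so the CD4conv level itself is poorly known.

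Ikzf1 encodes Ikaros, the founding member, which restrains lymphocyte activation. It was at 116, 94.2, 79.3 and 36.4 CPM in pregnant uterine Treg, 174, 94.03, 74.7 and 86.6 CPM in uterine Treg, 152, 90.05, 80.3 and 98.1 CPM in lymph node Treg, and 191, 209, 132 and 163 CPM in CD4conv. All pregnant uterine Treg libraries were below all CD4conv libraries. The other Treg groups overlapped CD4conv in CPM through their replicate 1. In pregnant uterine Treg the log2 fold change was -1.24 ± 0.60 over all genes (adjusted p = 1, edgeR) and -0.94 ± 0.28 among genes above background (adjusted p = 0.0455). It was -0.76 without the libraries over 30% background (adjusted p = 0.645) and -1.84 when scaled to Cd3 counts (adjusted p = 0.0269). That scaling also called Ikzf1 lower in lymph node Treg, but not in uterine Treg. Ikzf1 counts were at most 7.53%, 11.6% and 7.36% of Cd3 counts in pregnant uterine, uterine and lymph node Treg libraries. In CD4conv they were at least 14.2%. The scaling also moved the median of all genes, by -0.06, -0.27 and -0.71 in log2 for these Treg groups. The share of all genes without overlap on this scale was not taken.

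Ikzf3 encodes Aiolos, a factor of differentiated lymphocytes. It was at 162, 93.4, 183 and 149 CPM in pregnant uterine Treg, 232, 60.4, 57.3 and 86.1 CPM in uterine Treg, 83.4, 101, 76.2 and 115 CPM in lymph node Treg, and 57.0, 43.2, 27.9 and 67.2 CPM in CD4conv. Pregnant uterine and lymph node Treg lay wholly above CD4conv. Uterine Treg did not, and its replicate 1 was far above the rest of its group. In pregnant uterine Treg the log2 fold change over CD4conv was 1.52 ± 0.58 over all genes (adjusted p = 0.688, edgeR). Background was 15.4% to 38.3% of the Ikzf3 counts in CD4conv. The mean of pregnant uterine Treg, 147 ± 38.4 CPM, was the highest, but uterine Treg, at 109 ± 83.1 CPM, overlapped it (SD, n = 4).

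Ikaros proteins pair within the family, so each gene's share was taken of the summed CPM per exonic kilobase of the 4 genes. Ikzf2 made up 44.8 ± 1.61%, 45.9 ± 9.90% and 40.7 ± 4.06% in pregnant uterine, uterine and lymph node Treg, and 11.3 ± 2.98% in CD4conv (SD, n = 4). Ikzf1 made up 17.6 ± 5.72%, 22.2 ± 1.67% and 20.99 ± 2.10% in the Treg groups and 69.4 ± 7.99% in CD4conv. The Ikzf1 share was at most 23.9% in any Treg library and at least 58.3% in any CD4conv library. The Ikzf4 share was 15.9 ± 2.55%, 18.05 ± 6.85% and 25.5 ± 3.17% in Treg and 6.83 ± 4.00% in CD4conv, with overlap between uterine Treg and CD4conv. The Ikzf3 share overlapped between all 4 groups, at 21.8 ± 6.06%, 13.9 ± 5.35% and 12.9 ± 3.09% in Treg and 12.5 ± 2.75% in CD4conv. Subtracting the estimated background moved the Ikzf1 share to 15.8%, 21.8% and 20.5% in Treg and 75.2% in CD4conv. A share is not touched by scaling between libraries, but plasmacytoid dendritic cells and other leukocytes also express Ikzf1, and their part in the CD4conv share was not tested.

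**Figure D2:**
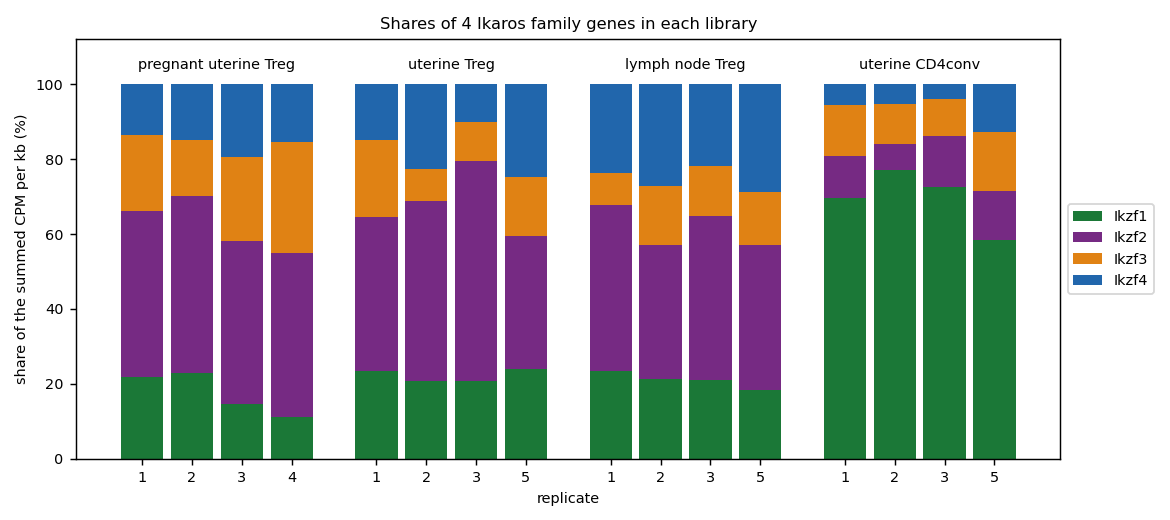
Share of each Ikaros family gene in the summed CPM per exonic kilobase of the 4 genes (percent), 1 stacked bar per library, grouped from pregnant uterine Treg to uterine CD4conv with replicate numbers below. Ikzf1 takes 58.3% or more of each CD4conv bar and 23.9% or less of each Treg bar, where Ikzf2 is at 35.7% or more.

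Foxo1 is a forkhead factor, kept in check by growth factor signalling, that maintains T cell quiescence and homing and is needed for Treg function. It was at 915, 477, 741 and 517 CPM in pregnant uterine Treg, 895, 912, 508 and 338 CPM in uterine Treg, 679, 629, 518 and 834 CPM in lymph node Treg, and 359, 146, 194 and 353 CPM in CD4conv. Pregnant uterine and lymph node Treg lay wholly above CD4conv, and uterine Treg replicate 5 overlapped it. The means of the Treg groups were 662 ± 205, 663 ± 286 and 665 ± 131 CPM (SD, n = 4) and differed by less than the spread between libraries. Over all genes the log2 fold change over CD4conv was 1.35 ± 0.62 in pregnant uterine, 1.29 ± 0.62 in uterine and 1.34 ± 0.62 in lymph node Treg (adjusted p = 0.965, 0.930 and 1, edgeR). Among genes above background it was 1.56 ± 0.28, 1.41 ± 0.28 and 1.30 ± 0.28, with adjusted p = 0.00153, 0.00375 and 0.00555. Scaled to Cd3 counts it was 0.80, 0.39 and 0.51 (adjusted p = 0.410, 1 and 0.792), so the direction held while the size was smaller.

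Runx1 and its non-DNA-binding partner Cbfb form a complex that helps switch on and maintain Foxp3 and that binds the Foxp3 protein. Runx1 was at 107, 104, 115 and 36.9 CPM in pregnant uterine Treg, 89.2, 106, 109.9 and 54.4 CPM in uterine Treg, 94.8, 70.5, 72.2 and 105 CPM in lymph node Treg, and 90.6, 70.6, 99.4 and 101 CPM in CD4conv. All 4 groups overlapped, and the means lay between 85.7 and 90.9 CPM. Cbfb was at 110.4, 62.7, 168 and 36.7 CPM in pregnant uterine Treg, 55.9, 91.7, 33.1 and 28.7 CPM in uterine Treg, 78.9, 90.5, 63.4 and 82.4 CPM in lymph node Treg, and 72.3, 66.9, 73.3 and 99.9 CPM in CD4conv. It too overlapped in CPM between all groups, with means of 94.3 ± 57.6, 52.4 ± 28.8, 78.8 ± 11.4 and 78.1 ± 14.8 CPM in that order (SD, n = 4). Background made up 7.31% to 140.9% of the Runx1 counts in Treg libraries. Per 100 Cd3 counts, Runx1 averaged 6.62 ± 1.26, 6.08 ± 2.25 and 5.69 ± 1.53 in the Treg groups and 12.1 ± 7.44 in CD4conv, where 1 of the 4 libraries reached 23.2 (SD, n = 4). On that scale Cbfb was at 2.37 to 4.01 in uterine Treg and 3.83 to 6.18 in lymph node Treg. It was at 5.01 to 8.89 in pregnant uterine Treg and 6.34 to 17.1 in CD4conv. Uterine Treg thus lay wholly below pregnant uterine Treg and CD4conv on this scale, and lymph node Treg wholly below CD4conv. Scaling to Cd3 counts also moved the median of all genes, by -0.27 and -0.71 in log2 for uterine and lymph node Treg against CD4conv. For pregnant over non-pregnant uterine Treg the median moved by 0.18. The share of all genes without overlap on this scale was not taken, so these positions are not read as a result about Cbfb. The fit scaled to Cd3 counts did not call Cbfb in any comparison.

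Bach2 is a repressor that holds back effector differentiation and keeps T cells in a resting state. It was at 47.7, 59.3, 27.1 and 38.9 CPM in pregnant uterine Treg, 93.8, 25.8, 21.2 and 47.5 CPM in uterine Treg, 89.4, 87.7, 71.6 and 112 CPM in lymph node Treg, and 65.5, 35.7, 30.6 and 56.03 CPM in CD4conv. Lymph node Treg lay above all pregnant uterine Treg and all CD4conv libraries, and above all uterine Treg libraries except replicate 1. The log2 fold change of uterine over lymph node Treg was -1.11 ± 0.54 (adjusted p = 1, edgeR, unadjusted p = 0.0485), with a range of -1.83 to -0.85 when 1 library was left out. The background estimate exceeded the Bach2 counts in the lowest uterine Treg library (128%) and was at most 43.3% of them in lymph node Treg, so the uterine level is near the limit of what these libraries can measure.

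Satb1 organises chromatin in developing T cells and sets up the Treg enhancer pattern before Foxp3 appears. It was at 395, 216, 238 and 258 CPM in pregnant uterine Treg, 115, 205, 217 and 191 CPM in uterine Treg, 438, 319, 291 and 668 CPM in lymph node Treg, and 329.6, 251, 120.1 and 412 CPM in CD4conv. Every uterine Treg library was below every lymph node Treg library. The log2 fold change of uterine over lymph node Treg was -1.46 ± 0.58 over all genes (adjusted p = 1, edgeR, unadjusted p = 0.0192) and -1.01 ± 0.36 among genes above background (adjusted p = 0.252). It stayed negative, between -1.79 and -1.20, in the 8 fits that left out 1 library. These groups share a sequencing batch but were sorted with opposite CD25 labels. Per 100 Cd3 counts Satb1 was at 28.0 to 35.7 in the 4 CD4conv libraries, which in CPM ranged from 120.1 to 412, and at 4.89 to 25.6 in uterine Treg. Lymph node Treg were at 21.2 to 50.1 on this scale, so uterine and lymph node Treg overlapped there, with uterine Treg replicate 5 (25.6) above 3 of the 4 lymph node libraries.

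Levels of different genes were compared per exonic kilobase. Foxp3 had the highest mean of the 10 genes in each Treg group, at 104, 91.0 and 122 CPM per kilobase in pregnant uterine, uterine and lymph node Treg, followed by Foxo1 at 76.4, 76.6 and 76.7 and Ikzf2 at 35.2, 37.4 and 35.2. In CD4conv the highest means were those of Foxo1 (30.3) and Ikzf1 (30.1), and the lowest that of Foxp3 (0.404). Bach2 was the lowest in pregnant uterine and uterine Treg, at 4.35 and 4.74 CPM per kilobase, and Runx1 the lowest in lymph node Treg, at 7.13. Foxp3 and Foxo1 differed by less than either SD in uterine Treg of non-pregnant mice, and Foxo1 and Ikzf1 did so in CD4conv.

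**Figure D3:**
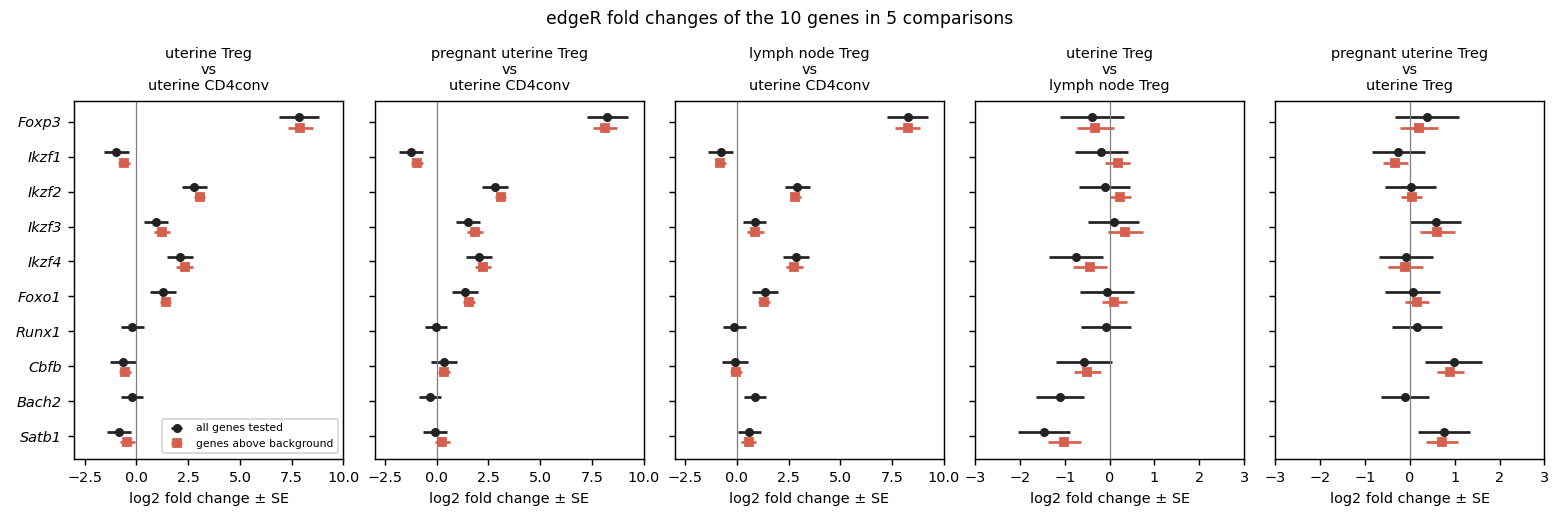
Log2 fold changes (edgeR) with standard errors of the 10 genes in the 5 comparisons, as black circles over all 30096 genes and red squares over the 4719 genes above background, which for Foxp3, Ikzf2, Ikzf3 and Ikzf4 against CD4conv are a description only. Foxp3, Ikzf2, Ikzf4 and Foxo1 lie right of 0 in the 3 comparisons with CD4conv, and the axes of the last comparisons are narrower because values there lie between -1.46 and 0.98.

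Genes that Foxp3 raises in Treg were described beside it as a list of 18. In uterine Treg, 4 of 18 were called higher than in CD4conv over all genes, in pregnant uterine Treg 4 and in lymph node Treg 8, with 0 lower. Of all genes tested, 0.518%, 0.432% and 0.665% were called in these comparisons. Among the 15 above background it was 10, 13 and 13 higher in uterine, pregnant uterine and lymph node Treg, with 0 lower. Of all genes above background, 6.1%, 8.39% and 7.65% were called. List genes low in CD4conv, such as Lrrc32 (7.92 CPM), could enter that set through their Treg levels. The counts above background are therefore a description. The median log2 fold change of the list was 1.48, 1.62 and 2.74 in these comparisons, beside -0.05, 0.07 and 0.02 over all genes tested. Lrrc32, which holds latent TGF-beta on the cell surface, had 5.26 ± 1.00 in pregnant uterine Treg (adjusted p = 0.00843, edgeR) and 5.41 ± 1.00 in lymph node Treg (adjusted p = 0.00482). Itgae, the CD103 integrin chain, had 4.30 ± 0.71 in pregnant uterine Treg (adjusted p = 0.00213), and Tnfrsf9, the costimulatory receptor 4-1BB, had 4.27 ± 0.62 in lymph node Treg (adjusted p = 0.000445). Ctla4, an inhibitory receptor, averaged 1456 ± 855, 1400 ± 568 and 1275 ± 263 CPM in the Treg groups and 152 ± 81.0 CPM in CD4conv. In lymph node Treg, Il2ra, Gpr83, Izumo1r, Il10 and Dusp4 were also called higher than in CD4conv over all genes, with log2 fold changes of 3.64, 4.09, 3.93, 2.78 and 3.08.

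Between uterine and lymph node Treg this list had 0 of 18 called over all genes by edgeR and 3 of 15 lower above background (1.29% of all such genes were called). Il2ra, the CD25 chain of the IL-2 receptor, averaged 96.1 ± 30.6 CPM in uterine Treg and 295 ± 62.1 CPM in lymph node Treg (log2 -1.48 ± 0.25 above background, adjusted p = 0.00421). The sort labels differ in CD25, so the gates can set this difference. Tnfrsf9 averaged 101 ± 25.7 and 309 ± 53.2 CPM (log2 -1.41 ± 0.25, adjusted p = 0.00761) and Gpr83, a G protein-coupled receptor of Treg, 33.0 ± 16.7 and 204 ± 66.9 CPM (log2 -2.46 ± 0.59, adjusted p = 0.0479). Gpr83 was the lower of these in uterine Treg, and over all genes it was not called (adjusted p = 0.658, edgeR). Foxp3 itself overlapped between these groups.

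Genes that Foxp3 lowers (11 genes) gave 0 calls over all genes in each of the 5 comparisons, although 1, 2 and 0 of the 11 had positive log2 fold changes in uterine, pregnant uterine and lymph node Treg against CD4conv. Above background, where 6 remained, Ifng, the type 1 effector cytokine, was called lower in pregnant uterine Treg (log2 -2.63 ± 0.68, adjusted p = 0.0224, edgeR) and in lymph node Treg (-2.59 ± 0.68, adjusted p = 0.0242). Il7r, the IL-7 receptor, was lower in lymph node Treg (-1.71 ± 0.27, adjusted p = 0.000513). The genes of highest level, Ptpn22, Il7r, Igfbp4 and Pde3b, averaged 156, 129, 37.6 and 56.9 CPM in uterine Treg and 150.4, 240.2, 165 and 64.6 CPM in CD4conv. NK cells also express Ifng, and 3, 3 and 2 of 11 NK cell markers tested were called lower over all genes in uterine, pregnant uterine and lymph node Treg against CD4conv. Their part in the Ifng difference was not tested.

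**Figure D4:**
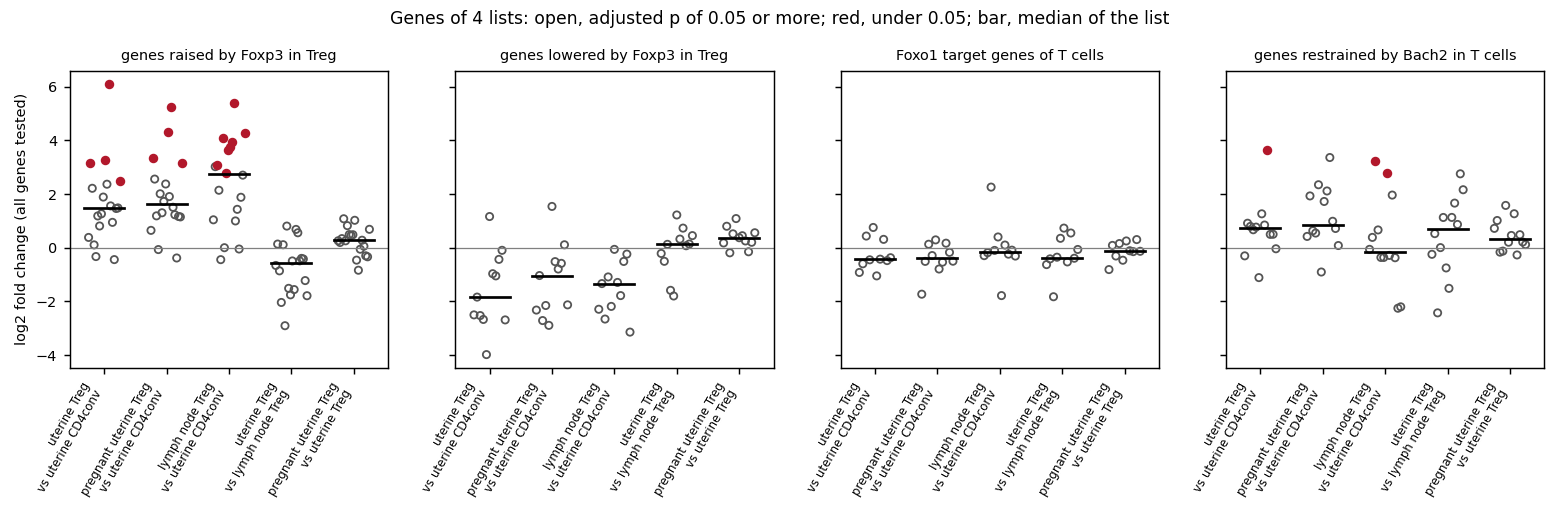
Log2 fold changes over all genes tested for the genes of 4 lists, in the 5 comparisons along each axis. Each circle is a gene, red and filled where the adjusted p is under 0.05, and the bar is the list's median. Called genes, all higher, lie in the lists of genes raised by Foxp3 and restrained by Bach2, and only in comparisons with CD4conv.

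The 10 Foxo1 target genes gave 0 calls over all genes in each comparison, with medians between -0.44 and -0.12, beside -0.06 to 0.11 over all genes tested. Ccr7, the chemokine receptor for lymph node entry, averaged 580 ± 397, 798 ± 278 and 2835 ± 1385 CPM in pregnant uterine, uterine and lymph node Treg, and 554 ± 280 CPM in CD4conv (SD, n = 4). Above background it was higher in lymph node Treg than in CD4conv (log2 2.31 ± 0.38, adjusted p = 0.000689, edgeR) and lower in uterine than in lymph node Treg (-1.69 ± 0.37, adjusted p = 0.0315). Klf2, S1pr1 and Btg1, a homing regulator, an egress receptor and an antiproliferative gene, were not called in any of the 5 comparisons, over all genes or above background. Bcl2, a survival gene, was lower in pregnant uterine Treg than in CD4conv (-1.31 ± 0.31, adjusted p = 0.0121), Cxcr4 was higher in uterine Treg than in CD4conv (1.03 ± 0.26, adjusted p = 0.0227), and Il7r, also on this list, was lower in lymph node Treg as given above. Foxo1 itself differed between the 3 Treg groups by less than their spread.

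Of 12 genes that Bach2 restrains in T cells, Klrg1, a receptor of differentiated effector cells, was called higher over all genes in uterine Treg, against CD4conv (log2 3.63 ± 0.81, adjusted p = 0.0367, edgeR). Ccr8, a chemokine receptor of tissue Treg, was called higher in lymph node Treg than in CD4conv (3.22 ± 0.58, adjusted p = 0.00347), as was the cytokine Il10. Between uterine and lymph node Treg the list gave 0 calls over all genes, and above background 2 of 9 higher and 1 lower (1.29% of all such genes were called). S100a6, a calcium-binding protein, averaged 244 ± 100.2 CPM in uterine Treg and 49.0 ± 19.9 CPM in lymph node Treg (2.44 ± 0.37, adjusted p = 0.00309), and S100a4 35.2 ± 15.1 and 4.39 ± 2.39 CPM (3.12 ± 0.56, adjusted p = 0.00761). S100a4 was low in lymph node Treg, so its value above background is a description. Over all genes it was not called (adjusted p = 0.967, edgeR). Ccr8 was at 23.98 ± 6.23 and 113 ± 28.0 CPM (-2.03 ± 0.41, adjusted p = 0.0198). Over the whole list 8 of 12 log2 fold changes of uterine over lymph node Treg were positive, with a median of 0.70, beside -0.06 over all genes tested. Against CD4conv the medians were 0.72, 0.85 and -0.17 in uterine, pregnant uterine and lymph node Treg, beside -0.05, 0.07 and 0.02 over all genes. Of the 9 above background, 5 were called higher and 0 lower in pregnant uterine Treg than in CD4conv (Il10, Klrg1, Il1rl1, Ccr4 and Gzmb). Of all genes above background, 8.39% were called there. Klrg1 and Il10 averaged 10.4 and 7.07 CPM in CD4conv, so their part in this count is a description. Markers of other cells also differed between uterine and lymph node Treg. Macrophage and dendritic cell markers summed to 309 to 1341 CPM in uterine Treg and 122 to 162 CPM in lymph node Treg, with 14 of 15 log2 fold changes positive, and stroma and smooth muscle markers to 31.3 to 1141 and 25.9 to 224 CPM. On the NK cell list, 5 of 11 log2 fold changes were positive. Among these, Tyrobp and Fcer1g, adaptor chains that myeloid cells share, averaged 9.40 and 10.4 CPM in uterine Treg. Their lymph node Treg means were 0.679 and 0.494 CPM, and over all genes neither was called (adjusted p = 0.967 and 0.658, edgeR). The part of such cells in the S100a4 and S100a6 differences was not tested.

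Relatives of the 10 genes (11 genes, 10 tested) gave Runx2, a paralog of Runx1, lower in uterine Treg (log2 -3.14 ± 0.56, adjusted p = 0.00437, edgeR) and in lymph node Treg (-3.48 ± 0.57, adjusted p = 0.00142) than in CD4conv. It was at 49.5 ± 7.76, 29.7 ± 6.81 and 22.3 ± 6.70 CPM in pregnant uterine, uterine and lymph node Treg, and 203 ± 67.2 CPM in CD4conv. Runx2 is also a marker of plasmacytoid dendritic cells, 11 of whose 12 markers were, over all genes, called lower in uterine Treg, against CD4conv. The part of those cells in the Runx2 difference was not tested. Foxp1, a forkhead paralog, averaged between 223 and 340 CPM in the 4 groups and was not called, nor was Foxp2. Runx3, which directs cytotoxic T cells, was lower above background in lymph node Treg than in CD4conv (29.6 and 75.0 CPM, -1.41 in log2, adjusted p = 0.00526). Of 22 protein partners of Foxp3 (21 tested), 0 were called over all genes in the 5 comparisons. Of the 15 above background, 2, 1 and 2 were called higher in uterine, pregnant uterine and lymph node Treg than in CD4conv, and 1, Runx3, lower in lymph node Treg. Of all genes above background, 6.1%, 8.39% and 7.65% were called, so these counts are not read as a result about the partners. Rora was higher in uterine (log2 2.00, adjusted p = 0.00178) and pregnant uterine Treg (1.94, adjusted p = 0.00221), Irf4 in uterine Treg (1.36, adjusted p = 0.0213), and Bcl11b and Hdac7 in lymph node Treg (1.41 and 1.69, adjusted p = 0.0214 and 0.00201). Rora, a nuclear receptor, was higher in uterine Treg than in lymph node Treg (818 ± 324 and 281 ± 157 CPM, log2 1.68 ± 0.36, adjusted p = 0.0242). The other partners of highest level, Ets1, Hif1a and Tcf7, were not called in either fit. Of 13 subunits of NuRD, the chromatin complex that Ikaros proteins recruit, 0 were called over all genes. Chd3, its helicase subunit, was higher above background in pregnant uterine Treg (1.28 ± 0.36, adjusted p = 0.0347) and lymph node Treg (1.47 ± 0.36, adjusted p = 0.0150) than in CD4conv. The subunits Mta2, Rbbp4 and Rbbp7 were not called in either fit. The 6 Maf family partners of Bach2 and their relatives gave 0 calls over all genes. Of the 4 of highest level, Nfe2l2, a stress response factor, was lower above background in uterine and lymph node Treg than in CD4conv (log2 -1.95 and -2.30, adjusted p = 0.0271 and 0.00815), Maf was higher in pregnant uterine Treg (1.28, adjusted p = 0.033), and Mafk and Nfe2l1 were not called.

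The genes whose levels followed a member most closely were ranked by Pearson's r of log2 CPM over the 16 libraries among 4711 protein-coding genes above background, as a description in which points share library, depth and background. For Foxp3 they were Rln3, the relaxin 3 hormone gene (r = 0.95), Itgae (0.95), Lrrc32 (0.94), Ctla4 (0.93) and Tnfrsf9 (0.91). Over the 12 Treg libraries alone, r was 0.74, 0.90, 0.82, 0.90 and 0.80 for these genes. For Ikzf2 they were Rln3 (0.95), Ctla4 (0.94), Tox, a chromatin-associated T cell factor (0.92), Itgae (0.91) and Ncmap (0.90). In the 12 Treg libraries alone these were 0.85, 0.85, 0.93, 0.82 and 0.77. Over all 16 libraries Ikzf2 and Foxp3 had r = 0.94 with each other, and Runx1 and Cbfb 0.85. The value for Ikzf2 and Foxp3 includes the difference between Treg and CD4conv. For Satb1 they were Bag5 (0.89), Ncl (0.88), Foxp1 (0.86) and Ik (0.86), and for Bach2 Tbl1x (0.83), Uimc1 (0.83), Adck5 (0.82), Mettl17 (0.80) and Inpp5f (0.80).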

How the data were processed

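RNA was measured in 16 libraries of sorted CD4+ T cells in 4 groups of 4 taken from the labels. Per the labels, cDNA came from the SMART-Seq v4 kit and libraries from Nextera XT, sequenced in paired reads of 150 bases. This kit does not mark strand, so reads of overlapping genes cannot be told apart. The authors deposited raw gene counts, not normalized, for 49585 genes. Trimmomatic, HISAT2, SAMtools, featureCounts, DESeq2 and the build GRCm38 are named per the submitters' processing notes, without versions or settings. Each of 16 single-library files held the same counts as its column of the table.

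Symbols, coordinates and exonic lengths came from GENCODE M21 (49326 identifiers matched). CPM scales the counts of each library to a common total. The main test was edgeR 4.0.16 in R 4.3.3 (quasi-likelihood, TMM, filterByExpr, robust fit of all 16 libraries, 12 residual degrees of freedom), with Benjamini-Hochberg adjustment over 30096 genes. It was repeated on 4719 protein-coding genes above background. The standard error (SE) was taken from the log2 fold change and its F statistic, as |log2 fold change| over √F. Alternatives included DESeq2 1.42.0 and fits that left out libraries. The fits were tested on simulated counts. Over the comparisons, a 4-fold change was recovered in 1.5% to 6.2% of the genes given it. An 8-fold change was recovered in 22.2% to 25.4% and a 16-fold change in 45.3% to 56.9%. A gene that was not called is therefore not shown to be unchanged. The 10 genes, the gene lists and the set of genes above background were chosen with earlier results of these data known.

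All 10 genes were named. A fold change was printed where it passed 0.05 in either fit or its absolute log2 value over all genes was 1 or more. Of each list, genes that passed over all genes were named and otherwise those of highest CPM, up to 4. Likeness of pattern was ranked for Foxp3, Ikzf2, Bach2 and Satb1 (5 genes each, of which 1 is not reported here, log2 CPM with TMM and a prior count of 2). Genes named because they passed only above background were chosen after their values were seen. The replicates are separate pools of mice, and p-values measure the spread between pools.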

Additional observations from a re-analysis of the deposited data

Results flagged for a closer look

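Of 40 sets of 4 libraries (10 genes in 4 groups), 2 held a library far from the other 3 by Dixon's criterion, and chance flags about 1 in 20 such sets. Ikzf3 was at 232.2 CPM in uterine Treg replicate 1, against 57.3 to 86.1 CPM in the other libraries of that group. Runx1 was at 36.94 CPM in pregnant uterine Treg replicate 4, against 104 to 115 CPM in the others, in the library with the highest estimated background (53.6%), where that background exceeded the Runx1 counts (140.9% of them).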

How the results depend on the processing

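No fold change of the 10 genes printed above reversed in any setting. The genes called over all genes tested (156, 130 and 200 for uterine, pregnant uterine and lymph node Treg against CD4conv, 0 and 0 for the tissue and pregnancy comparisons) changed with the setting, and where no cause is named the cause was not tested. Among the 4719 genes above background, whose scaling and spread were estimated anew, they were 288, 396, 361, 61 and 0. The higher and lower calls split 10 to 146, 10 to 120 and 22 to 178 over all genes and 147 to 141, 194 to 202 and 136 to 225 above background, where the median of these genes lay 0.31, 0.25 and 0.04 higher on the log2 scale. Of the 10 genes, 4 and 6 were called above background for uterine and pregnant uterine Treg, counts that include genes which entered that set through their Treg levels. Without the 5 libraries over 30% background, 427 and 230 genes and 4 and 5 of the 10 were called for these groups (108 higher to 319 lower and 125 to 105, and 73 to 199 for lymph node Treg), and 2 and 4 genes in the tissue and pregnancy comparisons. DESeq2 called 341, 330, 436, 28 and 13 genes. With only the compared groups fitted, 78 genes and 1 of the 10 were called for pregnant uterine Treg and 414 genes for lymph node Treg. Scaling to Cd3 counts gave 300 genes for pregnant uterine Treg, and moved the median of all genes by -0.27 and -0.71 on the log2 scale for uterine and lymph node Treg against CD4conv and by 0.43 and 0.18 in the tissue and pregnancy comparisons. Without the 2 CD4conv libraries highest in macrophage markers, a setting chosen after seeing the data, 24, 27 and 42 genes were called and 1 of the 10 in each, Foxp3.

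Leaving out 1 library gave 72 to 170, 72 to 162 and 106 to 237 genes against CD4conv, 1 to 2, 1 to 2 and 1 to 3 of the 10, and 0 in the other comparisons. Same-numbered libraries did not deviate together (correlations between -0.40 and 0.37), so the numbers do not pair the samples. With the replicate block 164, 103, 213, 0 and 0 genes and 2, 2, 3, 0 and 0 of the 10 were called. Depth, background and 4 libraries a group limit what can be called: replicates varied by a coefficient of 0.812 in the fit of all genes and 0.433 above background, and changes in Bach2 and Runx1 near background may not be detectable.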
